A study of Arabidopsis thaliana with 8 samples.

Results

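The XTH17 to XTH25 genes of Arabidopsis thaliana are 9 members of the xyloglucan endotransglucosylase/hydrolase (XTH) family of 33 genes. They were set by gene identifier, with earlier results of these data known. All 9 were among the 23632 genes of the deposited table of normalized read counts. Transcript was measured by RNA-seq in 1 mm root tips of Col-0 seedlings, which were 5 days old when they were kept for 48 h at either 22 °C (control) or 30 °C (high temperature), with 4 libraries per temperature. Per the study's methods each library was a pool of 50 seedlings. The root tips were a mixture of cell types sampled at a single time point, so that fewer cells of a type and less RNA per cell cannot be told apart. The p-values measure the spread between these pools only.

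XTH enzymes act on xyloglucan, the main hemicellulose that coats and tethers cellulose microfibrils in the primary walls of dicots. They cut a xyloglucan chain and join the new end to another chain (endotransglucosylation) or to water (hydrolysis), which can loosen or rebuild the wall while a cell elongates. XTH17, XTH18, XTH19 and XTH20 are known as a group of close relatives used in the root, XTH21 is known for a role in root growth, and XTH22 is better known as TOUCH4 (TCH4), a gene induced by touch, brassinosteroid, auxin and temperature shifts. XTH23 (also XTR6), XTH24 (also MERI5) and XTH25 (also XTR3) are relatives of XTH22.

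The members share their catalytic site, and the coding sequence of the site shows how far the copies have diverged. In an alignment of the 9 proteins, 124 of 335 columns held the same residue in every member, and the longest stretch without a difference was 12 codons, or 36 bases, over the catalytic motif of the family. The 36 bases of each member follow, from the RefSeq annotation of TAIR10.1, with capitals where a base differs from the commonest base of the 9 members at that position.
XTH17: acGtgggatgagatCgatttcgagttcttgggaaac
XTH18: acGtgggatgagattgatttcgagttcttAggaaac
XTH19: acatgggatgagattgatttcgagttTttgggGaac
XTH20: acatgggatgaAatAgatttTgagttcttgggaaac
XTH21: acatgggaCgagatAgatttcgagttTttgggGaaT
XTH22: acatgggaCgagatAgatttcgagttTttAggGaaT
XTH23: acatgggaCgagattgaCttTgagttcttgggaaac
XTH24: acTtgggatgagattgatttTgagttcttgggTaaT
XTH25: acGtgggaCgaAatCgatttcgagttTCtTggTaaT
All 9 sequences encode the same residues. The differences between them ranged from 2 bases off the commonest base in XTH17, XTH18 and XTH19 to 9 bases in XTH25.

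Of the 9 members, 4 fell and 4 rose at high temperature, and XTH20 was too low to test. Those that fell were XTH17, XTH18, XTH19 and XTH21, the abundant members, and those that rose were XTH22, XTH23, XTH24 and XTH25, the scarce ones. A call needed a limma p of less than 0.05 after Benjamini-Hochberg adjustment over 21739 genes, all those averaging 1 or more normalized reads, together with a log2 change of 0.58 or more in size. Over all genes tested, 20% were called higher and 17.5% lower, 37.4% in either direction, so that both directions were common in these root tips. The median log2 fold change of the 8 members tested was −0.17, between the 2 directions, beside 0.01 over all genes tested. The groups did not overlap in 7 of these 8 members, 4 lower and 3 higher, where 32.7% and 32.8% of all genes tested were without overlap in these directions.

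**Figure D1:**
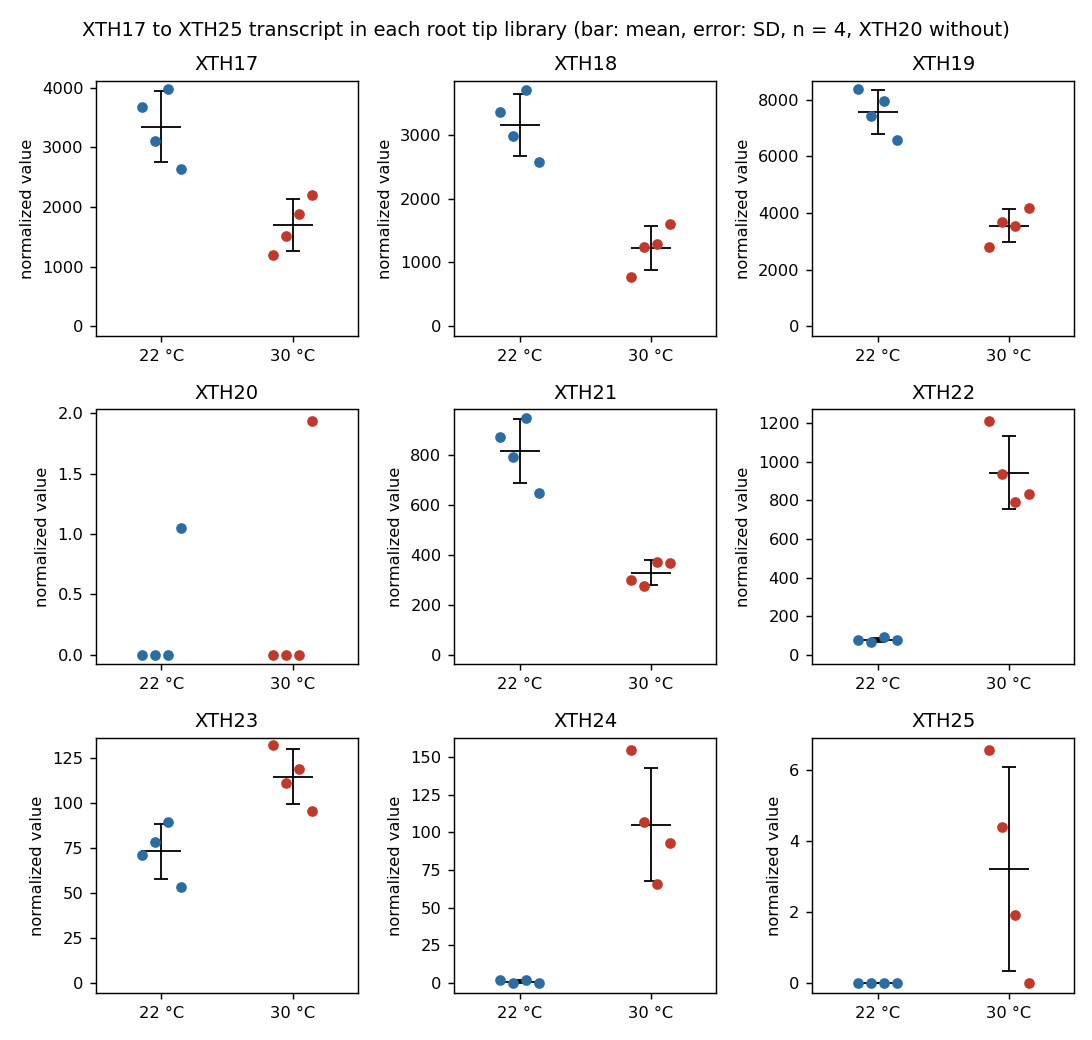
Normalized value (read count divided by a size factor) of each member in the 4 control (22 °C, blue) and 4 high temperature (30 °C, red) libraries, with replicates 1 to 4 from left to right and the mean and SD as bars, except for XTH20 with 3 reads in all. The red points of XTH17, XTH18, XTH19 and XTH21 all lie below the blue ones, those of XTH22, XTH23 and XTH24 all lie above, and each panel has its own scale.

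Before the single members, the state of the libraries is given. They held 38216649 to 41833843 reads in genes, and the sum of the normalized values at high temperature was 0.868 of that in the control. Every pair of replicates differed by more than sampling noise. Root cap genes (SMB, BRN1, BRN2), with a summed normalized value of 3143 to 3733 in the control and 4088 to 4419 at high temperature, were present in both groups. Of 5 genes of the meristem and stem cell niche, WOX5 (log2 fold change 2.33) and PLT1 (0.91) rose, CYCB1;1 (−1.21) and KNOLLE (−0.69) fell and PLT2 was not called, with a summed value of 4503 to 5104 and 4625 to 4886. All 4 root hair genes (COBL9, EXPA7, PRP3, RHS9) fell, from a summed value of 525 to 1216 in the control to 0 to 28.6 at high temperature, with RHS9 at 0 in all 4 libraries. Of the genes of the differentiating endodermis, MYB36 rose (log2 fold change 0.58), and CASP1 was not called, with a normalized value of 94.3 in high temperature replicate 3 and 0.877 to 7.51 in the other 3 libraries. Of 6 genes of the differentiating xylem, 1 rose (CESA7), 2 fell (XCP2, VND7) and 3 were not called, with a summed value of 1160 to 1622 and 1226 to 1592. The shoot gene CAB1 fell from 106 ± 14.4 to 14.2 ± 2.85 (SD, n = 4 each). Over all genes tested 20% were called higher and 17.5% lower. The part of these markers in the results on the XTH genes was not tested.

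XTH17 (AT1G65310, chromosome 1, 24257054 to 24258506, plus strand, TAIR10.1) had normalized values of 3676, 3104, 3977 and 2636 in control replicates 1 to 4 and 1199, 1507, 1884 and 2198 in high temperature replicates 1 to 4. All 4 high temperature libraries lay below the lowest control library, and the highest of them came near to it. The mean was 3348 ± 597 against 1697 ± 436 at high temperature (SD, n = 4 each), a 1.97-fold lower value, with a log2 fold change of −1.0 (95% confidence interval −1.32 to −0.68, limma adjusted p = 2.38e-05).

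XTH18 (AT4G30280, chromosome 4, 14825757 to 14827211, minus strand) is the closest relative of XTH17 in sequence. Its values were 3367, 2986, 3700 and 2580 in the control and 770.2, 1238, 1283 and 1607 at high temperature. The groups were further apart than those of XTH17, since the highest high temperature library was well under the lowest control library. The mean fell from 3158 ± 483 to 1224 ± 345 (SD, n = 4 each), 2.58-fold, with a log2 fold change of −1.40 (95% confidence interval −1.75 to −1.06, limma adjusted p = 1.32e-06). The interval overlaps that of XTH21, and the order of these members reversed with quantile normalization (−1.34 for XTH18, −1.44 for XTH21) and without high temperature replicate 1 (−1.19 and −1.27).

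XTH19 (AT4G30290, chromosome 4, 14828712 to 14830224, minus strand) was the most abundant member at both temperatures. It had values of 8382, 7417, 7946 and 6578 in the control and 2813, 3681, 3535 and 4188 at high temperature, again without overlap. The mean fell from 7581 ± 776 to 3554 ± 568 (SD, n = 4 each), 2.13-fold, with a log2 fold change of −1.10 (95% confidence interval −1.30 to −0.90, limma adjusted p = 4.11e-08).

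XTH20 (AT5G48070, chromosome 5, 19481897 to 19483527, plus strand), the remaining relative of XTH17, XTH18 and XTH19 and a gene known from the vascular tissue of older root parts, was close to absent. It had 1 read in control replicate 4, 2 reads in high temperature replicate 4 and 0 reads in the other 6 libraries, and its mean normalized value was below the minimum of 1. Its 3 reads allow no statement on a difference at this depth.

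XTH21 (AT2G18800, chromosome 2, 8144881 to 8146477, plus strand) was lower than XTH17, XTH18 and XTH19 but fell with them. The values were 871.4, 791.8, 947.1 and 647.9 in the control and 298.3, 272.8, 372.6 and 367.9 at high temperature. Every high temperature library was far below every control library, and the mean fell from 815 ± 128 to 328 ± 50.0 (SD, n = 4 each), 2.48-fold, with a log2 fold change of −1.31 (95% confidence interval −1.56 to −1.06, limma adjusted p = 6.97e-08).

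XTH22 (TCH4, AT5G57560, chromosome 5, 23307006 to 23308680, minus strand) rose in all 4 libraries. It had values of 75.5, 67.5, 90.6 and 74.3 in the control and 1215, 937.7, 792.8 and 833.5 at high temperature. The lowest of the high temperature libraries was several times the highest control library. The mean went from 76.9 ± 9.74 to 945 ± 190 (SD, n = 4 each), 12.3-fold higher, with a log2 fold change of 3.60 (95% confidence interval 3.32 to 3.87, limma adjusted p = 2.32e-12).

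XTH23 (XTR6, AT4G25810, chromosome 4, 13128394 to 13129927, plus strand), the nearest relative of XTH22, started from the same level and rose far less. Its values were 71.3, 78.5, 89.5 and 53.4 in the control and 132.3, 111.4, 119.1 and 95.8 at high temperature. The highest control library and the lowest high temperature library were close to each other, without overlap. The mean went from 73.2 ± 15.2 to 115 ± 15.2 (SD, n = 4 each), 1.57-fold higher, with a log2 fold change of 0.66 (95% confidence interval 0.28 to 1.04, limma adjusted p = 0.00396). The call was lost without control replicate 4, the lowest library, where the log2 fold change was 0.52, and with quantile normalization, where it was 0.45, both under the fold threshold.

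XTH24 (MERI5, AT4G30270, chromosome 4, 14819192 to 14820595, minus strand) went from near absence to a level like that of XTH23. In the control it had 2 reads in replicate 1, 2 reads in replicate 3 and 0 reads in the other 2 libraries, and at high temperature 165, 122, 69 and 96 reads. These are normalized values of 2.1, 0, 2.1 and 0 in the control and 154.8, 107.0, 65.8 and 92.9 at high temperature. No high temperature library came near the control, and replicate 1 stood above the other 3. With 4 against 452 reads the ratio of the size-factor-adjusted totals was 99.2 (exact 95% interval 38.5 to 366, counting error only), and the fitted log2 fold change was 6.47 (95% confidence interval 5.24 to 7.69, limma adjusted p = 6.12e-08), which depends on the value of 0.5 added before taking logs.

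XTH25 (XTR3, AT5G57550, chromosome 5, 23304782 to 23306440, minus strand) was the weakest of the 4 calls. It had 0 reads in all 4 control libraries and 7, 5, 2 and 0 reads at high temperature, so the groups overlapped at 0. Against a floor of 3 reads over the control group, the 14 reads amounted to a 4.10-fold higher value. This leaves out the counting error of the 14 reads and is no lower bound. The limma adjusted p was 0.0315, and it was 0.05 without control replicate 1, 0.105 without high temperature replicate 2 and 0.0566 without high temperature replicate 3, while without high temperature replicate 1 XTH25 was too low to test.

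In the exact two-sided permutation test, each of the 7 members without overlap had p = 0.0286, the smallest that 70 arrangements of 4 against 4 libraries can give, and XTH25 had p = 0.143. Over 134 refits of the 8 members tested, with other pseudocounts, filters, scalings and tools and without each library in turn, none reversed its sign. Most of these refits could not have done so. Where groups do not overlap, or the control is at 0 as for XTH25, a pseudocount, a filter or a left-out library cannot turn the sign. Only the other scalings and tools could in principle have, and with them the directions stayed the same. They are a weak check, since the scalings shifted the values by less than the changes themselves. A rescaling to equal total reads moved the all-gene median on the log2 scale from 0.01 to 0.22, and 4 members rose and 4 fell with it too. The smallest member change was 0.66 (XTH23), and its lowest value with another scaling or tool was 0.45.

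The same libraries often stood at the ends of the ranges. Control replicate 4 had the lowest value of the group for all 4 members that fell and for XTH23. High temperature replicate 1 had the lowest values of XTH17, XTH18 and XTH19 and the highest of all 4 members that rose, and high temperature replicate 4 had the highest values of XTH17, XTH18 and XTH19. Without high temperature replicate 1 the calls of 7 members were kept, and XTH25 averaged less than 1 and was not tested.

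Levels of different genes were compared by fragments per unit of transcript length and depth (FPKM). For each gene the deposited FPKM were proportional to the normalized values, so depth was set by the size factors. The lower sum of normalized values at high temperature, 0.868 of the control, therefore remains in the FPKM values. In the control XTH19 came first with 144 ± 14.7 FPKM, followed by XTH17 with 68.2 ± 12.2 and XTH18 with 63.3 ± 9.69 (SD, n = 4 each), whose ranges overlapped. XTH21 had 17.2 ± 2.71 FPKM, apart from its neighbours. XTH23 with 1.35 ± 0.280 and XTH22 with 1.23 ± 0.155 overlapped, and XTH24, XTH20 and XTH25 were at or near 0. There was thus a wide gap in the control, with 4 members above 13 FPKM in every library and 5 below 2.

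At high temperature the gap was smaller. XTH19 was still first with 67.4 ± 10.8 FPKM, then XTH17 with 34.5 ± 8.88, XTH18 with 24.6 ± 6.91 and, overtaking XTH21, XTH22 with 15.05 ± 3.03 (SD, n = 4 each). XTH17 and XTH18 overlapped, and so did XTH18 and XTH22. XTH22 lay above XTH21, at 6.94 ± 1.06 FPKM, in every high temperature library and below it in every control library. XTH24 with 2.20 ± 0.780 and XTH23 with 2.11 ± 0.281 FPKM overlapped, and XTH25 and XTH20 stayed under 0.2 FPKM in every library.

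The 33 XTH genes together had 734 ± 55.8 FPKM in the control but 464 ± 37.2 at high temperature, and the 9 members 295 ± 38.5 and 153 ± 23.2 (SD, n = 4 each). The members held 40.1 ± 2.29% of the XTH transcript in the control and 32.8 ± 2.41% at high temperature, with ranges of 37.0 to 41.9% and 29.7 to 35.5% that did not overlap. Within this share the members that rose went from 0.352 ± 0.032% to 4.25 ± 1.22% of the XTH transcript, most of it XTH22 at 3.29 ± 0.919%. As a part of the members' own transcript they went from 0.880 ± 0.065% to 13.2 ± 4.87%, from 9.37% in the lowest high temperature library to 20.2% in replicate 1. The pool of the clade was therefore smaller at high temperature and held a larger part of TCH4-type transcript, while XTH19 alone still made up 14.5 ± 1.24% of all XTH transcript, after 19.6 ± 0.83% in the control. These shares are descriptions, with no test.

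**Figure D2:**
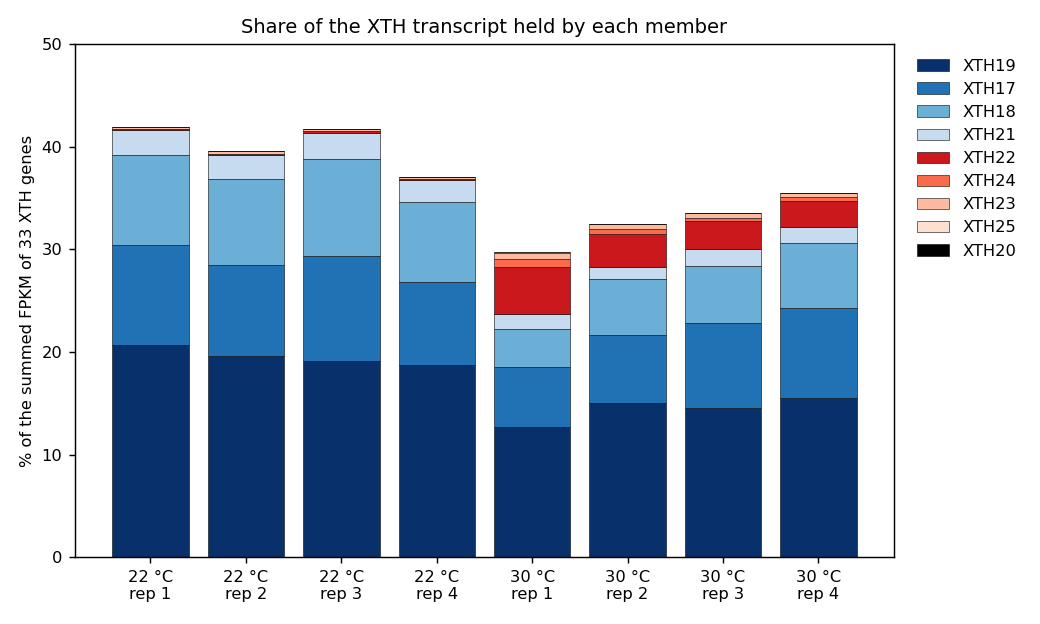
Share of the summed FPKM of all 33 XTH genes (vertical axis, %) held by each member in each library, with the members that fell in blue and those that rose in red. The 4 control bars end between 37.0 and 41.9% and the 4 high temperature bars between 29.7 and 35.5%, and the red part, hardly visible in the control, is largest in high temperature replicate 1.

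The other 24 XTH genes moved in both directions as well. Normalized values were listed for 20 of them and 16 passed the minimum. Of these 5 rose, 4 fell and 7 were not called, beside 20% higher and 17.5% lower over all genes tested. Their median log2 fold change was 0.33, beside 0.01 over all genes tested. XTH29 (2.48), XTH32 (1.82), XTH15 (1.08), XTH11 (1.07) and XTH27 (0.61) rose on the log2 scale. XTH5 (−2.41), XTH33 (−1.41) and XTH8 (−1.08) fell, and so did XTH14, which had a mean of 5.80 ± 2.67 normalized reads (SD, n = 4) in the control and was at 0 in all 4 high temperature libraries. XTH8 was the most abundant XTH gene at both temperatures and lost share, from 24.6 ± 0.856% to 18.4 ± 0.504% of the XTH transcript. XTH27 went from 4.95 ± 0.523% to 11.96 ± 1.07% (SD, n = 4 each). XTH24 and XTH22 had the highest fitted fold changes of the 24 XTH genes tested, but XTH25, with 0 reads in the control, came above XTH22 with edgeR (log2 fold change 4.77 against 3.63), DESeq2 (4.04 against 3.62) and a pseudocount of 0.1 (3.97 against 3.60).

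**Figure D3:**
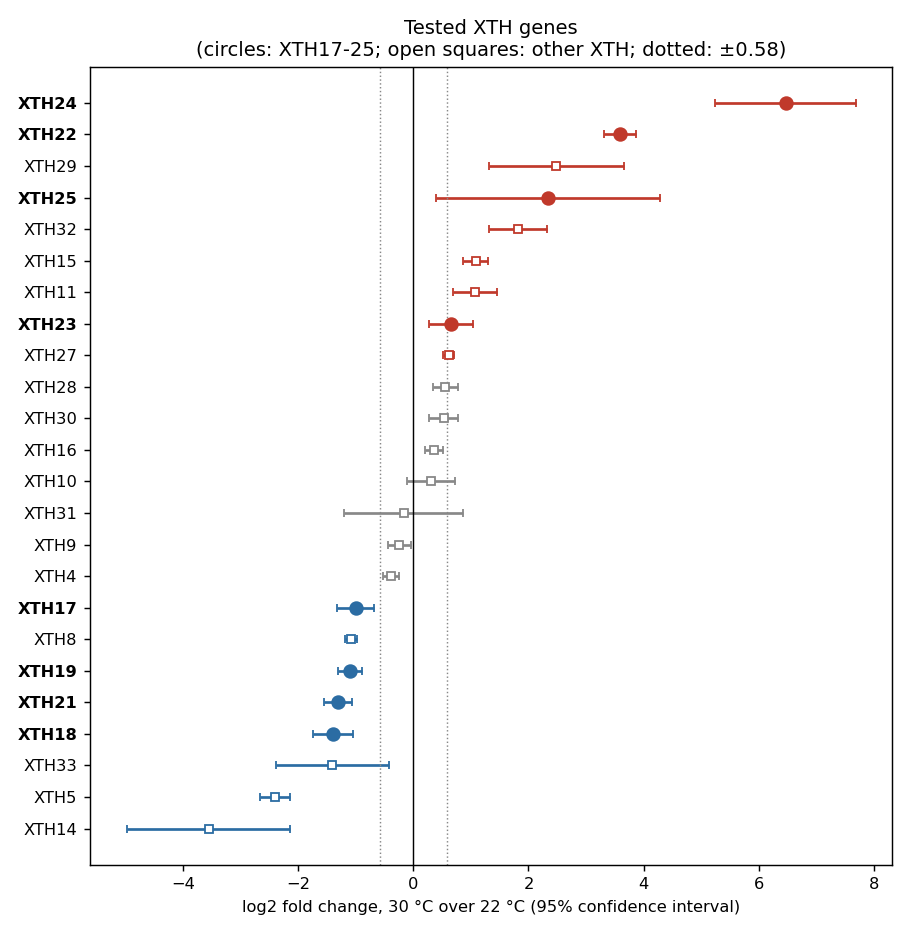
Log2 fold change at 30 °C over 22 °C (horizontal axis) with 95% confidence intervals for the 24 XTH genes tested, the members as filled circles and the others as open squares, in red where called higher, blue where called lower and grey where not called. XTH24 (6.47) and XTH22 (3.60) stand at the top and 4 members lie together between −1.40 and −1.0, while XTH24, XTH25 and XTH14 have wide intervals and values that depend on the pseudocount, because 1 of their groups is at or near 0.

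Several members lie in tandem arrays, and neighbours there did not all respond alike. On chromosome 4, XTH24, XTH18 and XTH19 follow each other on the same strand, with 5161 bases between XTH24 and XTH18 and 1500 bases between XTH18 and XTH19, and no other coding gene between these pairs. XTH24 rose while XTH18, beside it, and XTH19, beyond XTH18, fell. The within-library log2 ratio of XTH24 to XTH18 (FPKM, with 0.01 added) was −11.4 ± 1.21 in the control against −3.49 ± 0.889 at high temperature, a difference of 7.91. The ratio of XTH24 to XTH19 differed by 7.61 on the same scale. Because XTH24 was at 0 in 2 control libraries, the size of both differences depends on the value added, and with 0.1 FPKM they were 5.6 and 5.3. The ratio of XTH18 to XTH19 was −1.19 ± 0.113 and −1.49 ± 0.213 (SD, n = 4 each), a difference of −0.30, so that XTH18 fell by slightly more than XTH19.

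Elsewhere on chromosome 4, XTH23 lies 363 bases before XTH14 on the same strand. XTH23 rose and XTH14 fell to 0, and their log2 ratio was 3.40 ± 0.620 in the control against 7.72 ± 0.194 at high temperature (SD, n = 4 each), a difference of 4.33 that went down to 1.77 with a larger pseudocount. On chromosome 5 the order is XTH12, XTH13, XTH25 and XTH22, with 565 bases between XTH25 and XTH22. XTH12 and XTH13 were too low to test, and XTH25 was above 0 only in 3 libraries of the temperature at which its neighbour XTH22 was high. The 6 ratios were tested by exact two-sided permutation over 70 arrangements. XTH24 to XTH18, XTH18 to XTH19, XTH24 to XTH19 and XTH23 to XTH14 each had an exact p = 0.0286 (0.0429 adjusted over the 6), with no overlap between the temperatures. Except for XTH18 to XTH19 this result was fixed by the single genes and adds nothing to them. XTH24 and XTH23 rose and XTH18, XTH19 and XTH14 fell, all without overlap, so that their ratios had to separate. XTH25 to XTH22 (exact adjusted p = 0.103) and XTH13 to XTH25 (exact adjusted p = 0.114) did not pass, and both rest on genes near 0. XTH25 to XTH22 passed with 0.1 FPKM added (difference −2.82, exact adjusted p = 0.0343). XTH25 was at most 0.14 FPKM, near the value added, so this pass follows from the rise of XTH22 and says nothing on XTH25. XTH13 to XTH25 passed without high temperature replicate 4 (−3.99, exact adjusted p = 0.0343). Each of the 4 ratios that passed failed when any 1 control library was left out, with an exact adjusted p of 0.0571 to 0.129. For XTH24 to XTH18, XTH24 to XTH19 and XTH23 to XTH14 it was 0.0571 each time. Before adjustment these were still at the smallest p that 35 arrangements can give. The adjusted value rose because XTH18 to XTH19 (exact adjusted p 0.0857 to 0.129) was no longer at that smallest p.

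**Figure D4:**
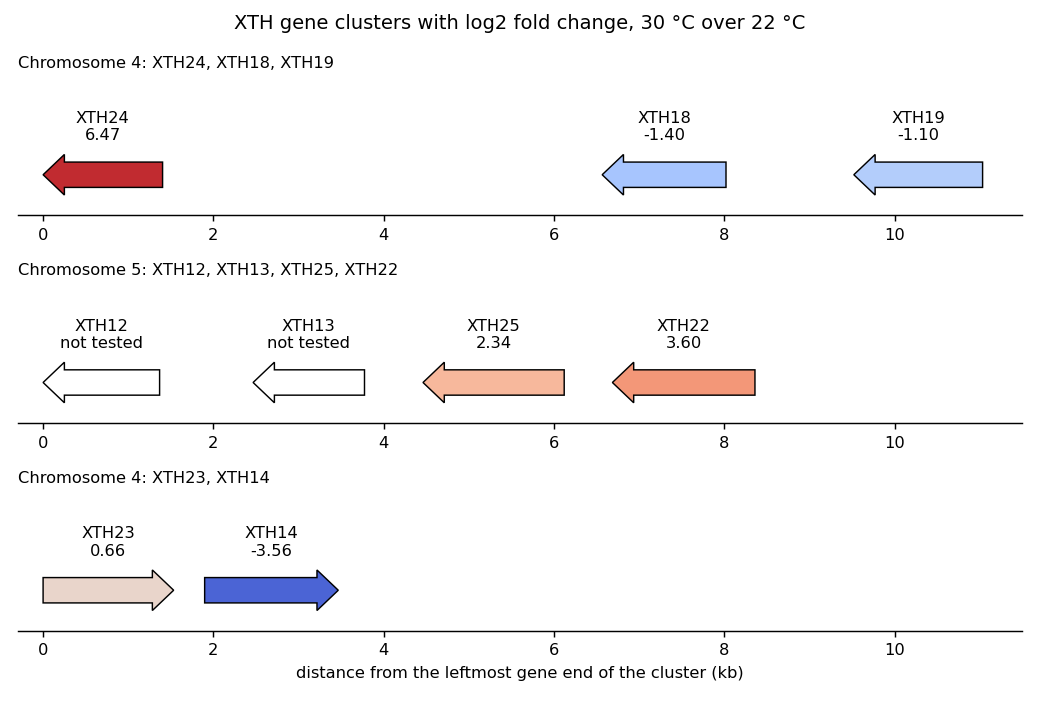
XTH genes of 3 tandem arrays drawn to scale as arrows in the direction of transcription (horizontal axis, kb from the left end of the array), with the log2 fold change at 30 °C over 22 °C above each and as colour, blue for lower and red for higher. XTH24 (6.47) stands beside XTH18 (−1.40), which XTH19 (−1.10) follows, and XTH23 (0.66) beside XTH14 (−3.56).

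Sequence relatedness and response were set side by side. Among XTH17, XTH18, XTH19 and XTH20 the 6 pairs had 83.9 to 92.2% identical bases in aligned codons, and XTH22 and XTH23 had 80.4%, whereas the other 29 pairs had 62.3 to 72.8%. XTH17 and XTH18, with 92.2% of bases and 93.3% of residues identical, had log2 fold changes of −1.0 and −1.40, while XTH22 and XTH23, with 84.0% of residues identical, had 3.60 and 0.66. XTH21 fell as XTH17, XTH18 and XTH19 did, although it is no close relative of theirs. XTH20 is one but was near 0 at both temperatures. The 16 pairs of a member that fell and one that rose had 64.5 to 70.7% identical bases.

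**Figure D5:**
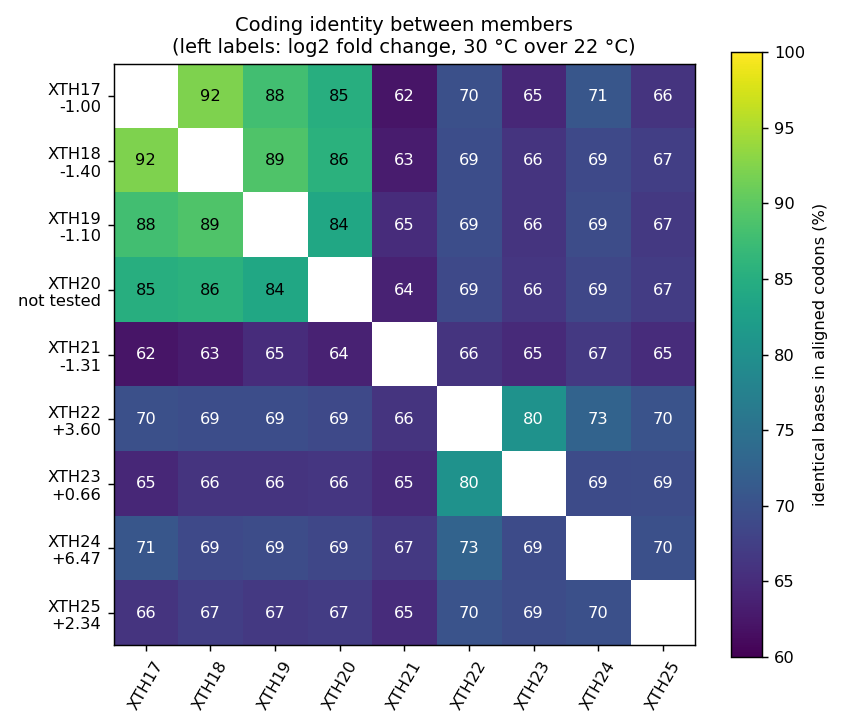
Percent of identical bases in aligned codons (colour and numbers, 60 to 100%) between the coding sequences of the 9 members, with each member's log2 fold change at 30 °C over 22 °C beside its name. XTH17, XTH18, XTH19 and XTH20 form a block of 84 to 92% and XTH22 and XTH23 share 80%, while XTH21 stands apart from all.

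Such close copies can share reads. The longest run of identical bases between the transcripts was 68 for XTH18 and XTH19, 51 for XTH17 and XTH19 and 47 for XTH17 and XTH18, and at most 30 for any member pair outside XTH17 to XTH20. The read length and the counting of reads that match several copies are not stated in the sources used here, which leaves the split between XTH17, XTH18 and XTH19 less certain than the values of the other members. No annotated gene overlaps a member on either strand.

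XTH17 and XTH18 also share the sequence just before their annotated starts, although they lie on different chromosomes. Their 250-base promoters are shown because of this, with that of XTH19, the next closest relative, for comparison. They are at chr1:24256804-24257053 (plus strand, XTH17), chr4:14827212-14827461 (minus strand, XTH18) and chr4:14830225-14830474 (minus strand, XTH19) of TAIR10.1, with starts from the RefSeq annotation. Capitals mark the identical run.
XTH17: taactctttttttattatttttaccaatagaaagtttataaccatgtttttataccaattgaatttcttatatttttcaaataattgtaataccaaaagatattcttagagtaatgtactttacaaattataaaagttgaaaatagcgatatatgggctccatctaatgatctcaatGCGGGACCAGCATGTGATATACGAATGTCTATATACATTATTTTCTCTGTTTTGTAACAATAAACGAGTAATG
XTH18: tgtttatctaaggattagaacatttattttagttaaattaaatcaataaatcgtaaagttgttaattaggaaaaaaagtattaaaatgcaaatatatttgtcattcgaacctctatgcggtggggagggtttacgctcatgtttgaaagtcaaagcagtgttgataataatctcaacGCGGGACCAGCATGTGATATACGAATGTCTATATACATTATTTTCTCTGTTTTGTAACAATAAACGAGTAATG
XTH19: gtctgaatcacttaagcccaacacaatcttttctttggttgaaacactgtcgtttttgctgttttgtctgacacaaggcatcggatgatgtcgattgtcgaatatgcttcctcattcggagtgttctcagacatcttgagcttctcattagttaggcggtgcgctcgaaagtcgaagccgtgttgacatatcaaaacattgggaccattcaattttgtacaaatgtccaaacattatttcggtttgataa
The run of XTH17 and XTH18 was 73 bases long and reached the start, and it went on for 7 bases of the transcript. In the other 35 pairs of member promoters the longest identical run was 7 to 11 bases. XTH19, which fell as XTH17 and XTH18 did, does not hold it.

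The 9 promoters were searched on both strands for 8 short motifs, and the share of all 27443 promoters of the same length that hold each is given for scale. The heat shock element forms GAANNTTC (9.55% of all promoters) and TTCNNGAA (7.68%), the G-box CACGTG (6.49%), the auxin response element TGTCTC (10.9%) and CGTGCG (1.57%), a form of the brassinosteroid response element, were in none of the 9. The other form of that element, CGTGTG (5.37%), was in XTH23 and XTH25. The W-box core TTGAC (44.9%) was in XTH18, XTH19, XTH20, XTH22 and XTH23, and the CGCG box core CGCGT (6.87%) in XTH18 and XTH20. No motif was in all members that rose or in all that fell. A match of so few letters is a description of the window and not a binding site.

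The genes that make and trim xyloglucan, the substrate of these enzymes, moved in both directions. Of 10 tested 1 rose, 5 fell and 4 were not called, beside 20% higher and 17.5% lower over all genes. The median log2 fold change was −0.60, beside 0.01 over all genes, and the difference was not tested. Those that fell included XXT5 (−1.07) and XXT2 (−0.94), which add xylose to the glucan backbone, XYL1 (−1.05), an alpha-xylosidase that trims the chains, and BGAL10 (−0.92), a beta-galactosidase. CSLC4, the backbone synthase, fell by 0.84 on the log2 scale. FUT1, the fucosyltransferase, rose (0.60), and XXT1, MUR3, XLT2 and FUC95A were not called.

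XTH22 is one of the touch-induced TCH genes, and 3 genes of that set that encode calmodulin or calmodulin-like proteins were looked at beside it. Of these 2 fell and none was called higher, beside 17.5% lower and 20% higher over all genes tested. CAM2 fell from a normalized value of 2317 ± 162 to 764 ± 45.4 (log2 fold change −1.60) and CML12 from 141 ± 20.2 to 59.1 ± 14.1 (−1.27). CML24 had 1124 ± 49.6 in the control and 1622 ± 77.1 in the heated root tips (SD, n = 4 each), without overlap and with a limma adjusted p of 7.52e-08, but its log2 fold change of 0.53 was under the fold threshold.

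For XTH24 and XTH22, with the largest fitted rises, and XTH18, with the largest fitted fall, in the limma fit on all libraries, the genes with the nearest profile were sought over the 8 libraries. The measure was the root mean square difference of log2 values after subtracting each gene's control mean, among genes averaging 100 or more normalized reads. The difference between the temperatures remains in these values, so a near profile is largely a like fold change. Shared regulation was not tested. Nearest to XTH22 were TIL, the temperature-induced lipocalin (0.0967), RAP2.10, an ERF-type transcription factor (0.149), and AT5G12110, annotated as an elongation factor subunit (0.164). Nearest to XTH18 were FUT4, a fucosyltransferase (0.109), AGL12, a root MADS-box factor (0.129), and AGP22, an arabinogalactan peptide (0.148). For XTH24, which was near 0 in the control, the nearest genes were further off, with AT4G12735 at 0.362, AT5G43450 at 0.710 and SCPL7 at 0.779.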

How the data were processed

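Poly(A) RNA of root tips at 22 °C and 30 °C was sequenced in 4 libraries each, per the labels (the study's methods give 3). Per the submitters' processing notes the tools included HISAT2 and DESeq2, with TAIR10 as the build, no version given. Counting program and strand setting: not given in the sources used here. The authors deposited normalized signal values (counts divided by size factors, 23632 genes) and FPKM values (32833 genes). All sample columns were matched to samples.

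Of the values, 100% were whole reads within 0.01 of a read. From 38216649 to 41833843 reads per library were recovered. The main test was limma 3.58.1 (R 4.3.3) with an intensity trend on log2(normalized value + 0.5), for genes with a mean of at least 1, with exact permutation tests (SciPy 1.17.1) beside it. It called 4344 genes higher and 3797 lower. On the recovered reads edgeR 4.0.16 (quasi-likelihood) called 4425 and 3633 and DESeq2 1.42.0 called 4199 and 3704. The fit was tested on simulated data. Gene models and sequences are of TAIR10.1 (23479 of the 23632 identifiers matched it), and proteins were aligned with MAFFT 7.526.

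The 9 members and all gene lists were chosen with earlier results of these data known. Named were all members, other XTH genes past both thresholds, up to 4 genes with the largest changes past them per further list, and the 3 nearest profiles of 3 members. Genes outside this rule (CSLC4, CML24, genes not called and cell type markers) are given as list members. The summed level and count of the endodermis markers are not reported here. Replicate numbers did not pair the libraries. Alternatives were other pseudocounts (0.1 and 1), filters, scalings, tools, a replicate block and leaving out each library.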

Additional observations from a re-analysis of the deposited data

Results flagged for a closer look

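Of the 18 groups of 4 libraries checked (9 members at 2 temperatures), 2 held a library far from the others by Dixon's criterion, both of XTH20. The control value of 1.05 in replicate 4 and the high temperature value of 1.94 in replicate 4 stood against 0 in the other 3 libraries of each group. They correspond to 1 and 2 reads. The criterion, which by chance flags about 1 in 20 groups of continuous values, says nothing here: with 3 values at 0, any other value is marked.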

How the results depend on the processing

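The 4 members that fell and XTH22 and XTH24 kept their direction and their call under every alternative run, with log2 fold changes without 1 library of −1.14 to −0.84 for XTH17, −1.55 to −1.19 for XTH18, −1.19 to −0.99 for XTH19, −1.42 to −1.23 for XTH21, 3.47 to 3.68 for XTH22 and 6.07 to 6.87 for XTH24. XTH23 lost its call with quantile normalization (0.45), and had 0.52 to 0.76 without 1 library, with an adjusted p of 0.000517 to 0.0335 over all alternatives. XTH25 had 2.03 to 3.12 without 1 library and an adjusted p of 0.00379 to 0.105, and with a minimum mean of 10 or without high temperature replicate 1 it was too low to be tested. The count of members was 3 to 4 higher and 4 lower throughout. Without the fold threshold 7798 genes were higher and 7657 lower, and 8 other XTH genes were higher. With a minimum mean of 10, 2 other XTH genes were lower, since XTH14 and XTH33 were no longer tested. Rescaling to equal total reads gave 5967 higher and 2595 lower genes, against 4344 and 3797.

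The differences in the log2 ratio of neighbours ranged without 1 library from 7.49 to 8.27 for XTH24 to XTH18, from −0.36 to −0.20 for XTH18 to XTH19, from 7.21 to 7.99 for XTH24 to XTH19, from 4.08 to 4.58 for XTH23 to XTH14, from −1.56 to −0.44 for XTH25 to XTH22 and from −3.99 to −2.41 for XTH13 to XTH25. Without any 1 control library none of the 4 that passed did so (exact adjusted p 0.0571 to 0.129), and without any 1 high temperature library all 4 did (0.0343 to 0.0429). Of these 4, all but XTH18 to XTH19 stayed at the smallest p of 35 arrangements before adjustment when a control library was left out. XTH13 to XTH25 passed without high temperature replicate 4 (−3.99, exact adjusted p 0.0343). With 0.1 FPKM added, XTH25 to XTH22 passed (−2.82, exact adjusted p 0.0343), which follows from the rise of XTH22. XTH24 to XTH18 and XTH24 to XTH19 had 5.6 and 5.3 with this value added. With the replicate number as a block the 4 ratios that passed had the same differences (7.91, −0.30, 7.61 and 4.33) and an adjusted p of 0.15, since the smallest p of a paired test of 4 pairs is 0.125. The block changed no member's call and gave 4300 higher and 3762 lower genes. Deviations of same-numbered libraries correlated at 0.0031 to 0.077, and not every library correlated best with its own number. The members' share of the control XTH transcript was 37.3% from values not divided by length. Low read numbers limited XTH20, XTH24 and XTH25.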

Other observations

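Transcription factors from a list drawn up as regulators reported for XTH genes were also looked at, and their action on the members was not tested. ANAC096 averaged 16.4 ± 7.45 normalized reads in the control against 2.85 ± 3.90 at high temperature (SD, n = 4 each, log2 fold change −2.99, limma adjusted p = 0.00185), with overlapping groups (exact two-sided permutation p = 0.0571). ANAC071 is listed at 0 in all 8 libraries. The brassinosteroid factors BZR1 (936 ± 78.0 and 951 ± 12.9) and BES1 (1177 ± 78.2 and 955 ± 54.4) were not called. BES1 was lower without overlap (limma adjusted p = 0.000234), but its log2 fold change of −0.30 was under the fold threshold. That of BZR1 was 0.03 (limma adjusted p = 0.685).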
